A study of Rattus norvegicus with 12 samples.

Results

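The endocannabinoid system is a set of lipid messengers, the receptors they act on, and the enzymes that make and remove them. Anandamide and 2-arachidonoylglycerol are made on demand in the postsynaptic neuron and act backwards across the synapse on the receptor CB1, which lowers transmitter release. In the striatum, CB1 is abundant on the projection neurons and on the terminals that reach them, and signalling through it is needed for forms of long-term depression at these synapses.

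The genes described are 2 receptors, 3 enzymes of synthesis and 2 enzymes of breakdown, 7 genes chosen by name. Of these 7, the array files carried 4 under their own symbols (Cnr1, Cnr2, Faah and Mgll). Napepld and Daglb stood in the files under older names and were found through the RefSeq gene table, by accession and by synonym, which gave 6 genes of 35623 on the array. Dagla was not analysed here. A gene was tested when the scanner software had marked a probe for it well above background on 0.4 or more of the arrays, which 20405 genes passed, among them 5 of the 6.

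RNA from the dorsal striatum of 12 male rats (strain and age are not given in the sources used here) was hybridised to 12 single-colour Agilent arrays, 1 rat per array. Every rat had received 9 µg of 6-OHDA, a toxin that kills dopamine neurons, on the left side, and there was no unlesioned group among the arrays. The 6-OHDA group (3 arrays) had no other treatment, the HFS group (3 arrays) had high frequency stimulation of the subthalamic nucleus for 5 days (130 Hz, 80 µs, 60 µA), the DOPA group (3 arrays) had L-DOPA at 25 mg/kg with benserazide at 12.5 mg/kg, injected 2 times daily over 19 days at a schedule meant to induce dyskinesia, and both treatments were given in DOPA/HFS (3 arrays), with stimulation on the last 5 days. Among these groups, the study describes an electrode implanted in the subthalamic nucleus for the HFS and DOPA/HFS rats only. Stimulation and electrode surgery therefore cannot be told apart in any comparison of stimulated with unstimulated arrays. Tissue of each rat was punched and pooled, so a value is a mean over all cells of the punch, and fewer cells of a type and less RNA per cell cannot be told apart.

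Every group had 1 array on each of 3 slides, numbered here as the replicates are. Each group always had the same position on the slide, so position and treatment cannot be told apart. Values are log2 signals after quantile normalization between arrays, and all 3 comparisons with 6-OHDA share its 3 arrays. A gene was called changed when limma's adjusted p was under 0.1 and the fold was over 1.2 or under 0.8. For the interaction only the limit on the adjusted p was used. An exact two-sided permutation test of 3 arrays against 3 cannot give a p below 0.1. With so few arrays, every value has limited precision.

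The tissue label was checked against marker genes. All 10 markers of striatal projection neurons were tested, and the mean log2 signal of the 9 with a value on every array was 13.67 in 6-OHDA and 13.67 in DOPA/HFS, and 13.69 in both DOPA and HFS.

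Cnr1 encodes the receptor CB1. Its brighter probe, printed on 10 spots of each array, had log2 signals of 11.71, 11.53 and 10.57 on the 6-OHDA arrays and 12.06, 12.24 and 12.14 on the DOPA arrays. All DOPA arrays were above all 6-OHDA arrays, and they lay close together (SD 0.093) where the 6-OHDA arrays were spread (SD 0.61). The signals were 11.12, 11.27 and 10.88 in HFS and 10.85, 11.90 and 11.96 in DOPA/HFS, and both of these groups overlapped with 6-OHDA. Within an array, the 10 spots had a median SD of 0.065 and a highest SD of 0.14.

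In DOPA, Cnr1 was higher than in 6-OHDA by a log2 fold change of 0.88 (95% interval 0.15 to 1.61), a fold of 1.84. The difference did not pass the limit (limma adjusted p = 1, unadjusted p = 0.0229; exact permutation p = 0.1, the smallest that 3 arrays against 3 allow). Within slides the differences were 0.35, 0.72 and 1.56, and with the slide as a block the limma adjusted p was again 1. Without the 6-OHDA array of slide 3 the log2 fold change was 0.53 (limma unadjusted p = 0.108), and without the DOPA array of slide 2 it was 0.83 (limma unadjusted p = 0.0578). Cnr1 belongs to a list of L-DOPA genes that the study itself picked on these arrays, so its direction here is not independent evidence.

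A further probe for Cnr1, on 1 spot, gave 10.50, 10.87 and 11.02 in 6-OHDA and 12.01, 11.93 and 11.29 in DOPA. Again all DOPA arrays were above all 6-OHDA arrays. The log2 fold change in the fit of all probes was 0.95 (95% interval 0.41 to 1.49; limma adjusted p = 1, unadjusted p = 0.00256). Both probes thus gave a higher mean in DOPA, but they disagreed on the single arrays: within slides the differences on this probe were 1.52, 1.06 and 0.27, the opposite order to the other probe, and the 6-OHDA array of slide 3 was the lowest of its group on the one and the highest on the other. Probes of 1 gene are measured on the same RNA and are not replicates.

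In HFS, the log2 fold change of Cnr1 against 6-OHDA was -0.18 on the brighter probe (95% interval -0.91 to 0.55) and 0.24 on the other (95% interval -0.30 to 0.78), so no direction is given. In DOPA/HFS the changes were 0.30 (95% interval -0.43 to 1.03) and 0.12 (95% interval -0.42 to 0.66). On the brighter probe single arrays decided the DOPA/HFS value: it was -0.048 without the 6-OHDA array of slide 3 and 0.67 without the DOPA/HFS array of slide 1 (limma unadjusted p = 0.0458, adjusted p = 1). Over both stimulation states, 6 arrays with L-DOPA were compared with 6 without it, and the brighter Cnr1 probe was higher by 0.68 on the log2 scale (95% interval 0.16 to 1.196; limma adjusted p = 0.9998; permutation p = 0.025 with arrays exchanged within each stimulation state, an exact two-sided test). On the other probe the difference was 0.41 (95% interval 0.033 to 0.79; limma unadjusted p = 0.0356, adjusted p = 0.9998). Over both L-DOPA states, stimulated arrays differed from unstimulated ones by -0.38 on the brighter probe (95% interval -0.90 to 0.14). The other probe gave -0.30 (95% interval -0.68 to 0.085). Without single arrays the brighter probe gave -0.55 to -0.20. The value of -0.55 (limma unadjusted p = 0.0209, adjusted p = 0.515) was without the 6-OHDA array of slide 3.

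The group means of the brighter Cnr1 probe were highest in DOPA (12.15), followed by DOPA/HFS (11.57), 6-OHDA (11.27) and HFS (11.09). DOPA did not overlap with DOPA/HFS, whereas each of the lower groups overlapped with its neighbour, and without the 6-OHDA array of slide 3 the mean of DOPA/HFS was not above that of 6-OHDA. The other probe gave a different order below DOPA (11.75): HFS (11.04), DOPA/HFS (10.92) and 6-OHDA (10.80). Whether HFS acts differently with and without L-DOPA was asked by the interaction, which was -0.40 on the brighter probe (95% interval -1.43 to 0.64; limma adjusted p = 1). On the other probe the interaction was -1.07 (95% interval -1.83 to -0.31; limma unadjusted p = 0.0103, adjusted p = 1), so a difference of this kind was not established.

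**Figure D1:**
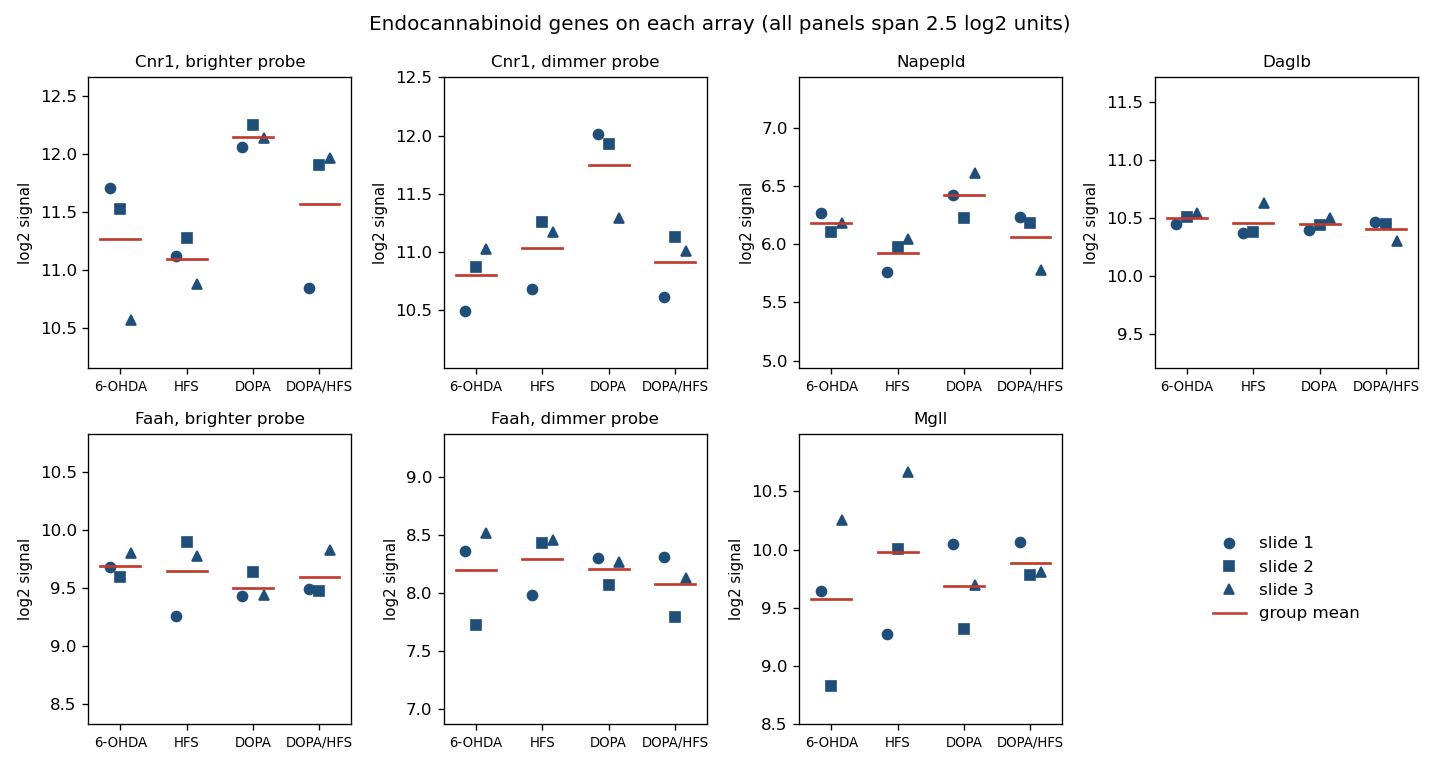
Log2 signal (vertical axis, 2.5 log2 units in each panel) of 7 probes for 5 endocannabinoid genes on the 12 arrays, by group (horizontal axis). Each point is 1 array, its shape is the slide and the red line is the group mean; the DOPA arrays are above the 6-OHDA arrays on both Cnr1 probes, and signals of different probes cannot be set against each other.

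Markers of other cells in the punch also varied between arrays. The summed intensity of the 4 cortical markers with a value on every array (of 6 listed, 5 tested; Neurod2 was the brightest) was 1612, 533 and 685 on the 6-OHDA arrays, 434, 1366 and 1667 on HFS, 598, 694 and 2318 on DOPA and 851, 723 and 880 on DOPA/HFS. The highest sum of the 12 arrays was thus on a DOPA array. The part of these cells in the Cnr1 signal was not tested.

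Cnr2 encodes CB2, the receptor found mainly on immune cells. One probe was not well above background on any of the 12 arrays. The other was marked well above background on 4 arrays, 2 of HFS and 2 of DOPA/HFS, and on none of 6-OHDA or DOPA. The signals did not divide in this way, and all 4 groups overlapped. The marked arrays had log2 signals of 4.96 and 4.81 (HFS) and 5.26 and 4.89 (DOPA/HFS). Unmarked were the 6-OHDA array of slide 1 at 5.13 and the DOPA array of slide 3 at 4.92. This probe did not pass the filter, and no fold is given because the bound was under 1 for HFS and for DOPA/HFS, each against 6-OHDA and against DOPA. The microglial list, a check on immune cells, had 8 of 8 markers tested, with a median log2 fold change of -0.037 in HFS, 0.11 for DOPA and 0.11 for DOPA/HFS, and its brightest gene was Aif1.

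Napepld encodes NAPE-PLD, a phospholipase that releases anandamide and related amides from membrane lipids. Its probe, on 10 spots, had log2 signals of 6.27, 6.10 and 6.18 in 6-OHDA and 5.76, 5.97 and 6.05 in HFS. All HFS arrays were below all 6-OHDA arrays. The signals were 6.42, 6.23 and 6.61 in DOPA and 6.24, 6.18 and 5.78 in DOPA/HFS, and both groups overlapped with 6-OHDA. The repeated spots differed by a median SD of 0.15 within an array, and by up to 0.33.

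In HFS, Napepld differed from 6-OHDA by -0.26 on the log2 scale (95% interval -0.62 to 0.11; limma adjusted p = 0.998; exact permutation p = 0.1, the smallest possible). The differences within slides were -0.51, -0.13 and -0.13, and with the slide as a block the limma adjusted p was 0.98. In DOPA the difference was 0.24 (95% interval -0.13 to 0.60), with 0.15, 0.12 and 0.43 within slides. In DOPA/HFS it was -0.12 (95% interval -0.48 to 0.24), with -0.032, 0.077 and -0.41 within slides. The log2 fold changes were smaller with normexp background correction (-0.10 for HFS, 0.11 for DOPA and -0.045 for DOPA/HFS), and with the deposited log2 table they were -0.11, 0.12 and -0.12. Without the DOPA array of slide 3 the difference in DOPA was 0.14, and without the DOPA/HFS array of slide 3 that in DOPA/HFS was 0.024, with the sign turned. Over both L-DOPA states, the 6 stimulated arrays differed from the 6 unstimulated ones by -0.31 (95% interval -0.56 to -0.049; limma adjusted p = 0.912; exact two-sided permutation p = 0.01 with arrays exchanged within each L-DOPA state). This difference was not called.

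Genes of the choroid plexus, the tissue in the ventricles that makes cerebrospinal fluid, were bright on the HFS arrays. Of 8 listed markers 6 were tested. All 6 had a higher mean in HFS than in 6-OHDA with a limma unadjusted p under 0.05, which 2.34% of all genes had. By limma 0 were called, as were 0% of all genes. The summed intensity of the 5 with a value on every array, of which Ttr was the brightest, was 88700, 4238 and 44420 on the HFS arrays against 219, 358 and 309 on the 6-OHDA arrays. It was 204, 1460 and 16350 in DOPA and 567, 878 and 246 in DOPA/HFS. The part of choroid plexus tissue in the HFS results was not tested.

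Daglb encodes diacylglycerol lipase beta, an enzyme that makes 2-arachidonoylglycerol. Its signal varied least of the 5 genes, between 10.30 and 10.63 over all 12 arrays (SD 0.087). The log2 fold change was -0.040 in HFS (95% interval -0.32 to 0.24), -0.050 in DOPA (95% interval -0.33 to 0.23) and -0.093 in DOPA/HFS (95% interval -0.37 to 0.18). Every group overlapped with 6-OHDA, and the group means followed the order 6-OHDA, HFS, DOPA and DOPA/HFS with overlap between all neighbours. In DOPA/HFS, Daglb did not overlap with 6-OHDA after scaling to the 75th percentile, and its log2 fold change was -0.24 with outlier spots kept or with the deposited log2 table.

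Faah encodes fatty acid amide hydrolase, which breaks down anandamide. Its brighter probe gave 9.68, 9.60 and 9.80 in 6-OHDA, 9.26, 9.90 and 9.78 in HFS, 9.43, 9.64 and 9.44 in DOPA and 9.49, 9.48 and 9.83 in DOPA/HFS. Every treated group overlapped with 6-OHDA in these values. The log2 fold changes were -0.049 in HFS (95% interval -0.45 to 0.35), -0.19 in DOPA (95% interval -0.59 to 0.21) and -0.097 in DOPA/HFS (95% interval -0.50 to 0.30). On the other probe they were 0.089, 0.0089 and -0.12, so the probes differed in sign for HFS and DOPA. In DOPA/HFS, Faah was -0.26 with the deposited log2 table and -0.25 with outlier spots kept, and under both settings it did not overlap with 6-OHDA.

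Mgll encodes monoacylglycerol lipase, the main enzyme that removes 2-arachidonoylglycerol in the brain. It had 9.64, 8.83 and 10.25 in 6-OHDA, 9.28, 10.00 and 10.66 in HFS, 10.05, 9.32 and 9.70 in DOPA and 10.07, 9.78 and 9.80 in DOPA/HFS. Arrays of 1 group differed by up to 1.42 (6-OHDA), and all groups overlapped. The log2 fold change was 0.41 in HFS (95% interval -0.45 to 1.26), 0.11 in DOPA (95% interval -0.74 to 0.97) and 0.31 in DOPA/HFS (95% interval -0.55 to 1.16), and each interval includes 0. Single arrays decided these values: in HFS the change was 0.033 without the 6-OHDA array of slide 2, 0.064 without the HFS array of slide 3 and 0.76 without the HFS array of slide 1. Without the 6-OHDA array of slide 2 the sign also turned in DOPA (-0.26) and in DOPA/HFS (-0.066).

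**Figure D2:**
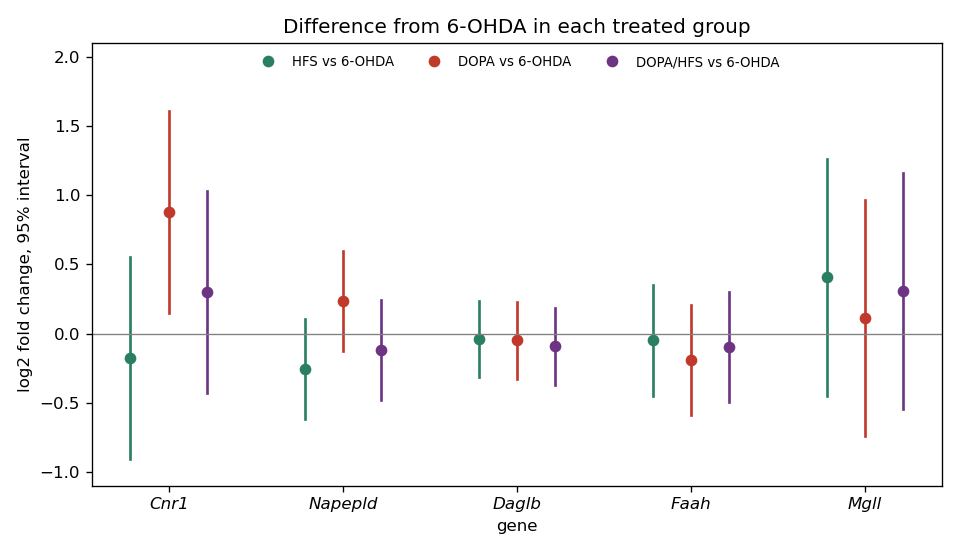
Log2 fold change against 6-OHDA (points, vertical axis) with its 95% interval (bars) for 5 genes (horizontal axis) in each treated group of 3 arrays, from the limma fit of 12 arrays. The interval for Cnr1 in DOPA, 0.15 to 1.61, is the only one of the 15 that does not include 0, and no difference passed the limit after adjustment over all genes.

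Counted together, 0 of the 5 tested genes were called by limma in HFS (0% of all 20405 genes were), 0 in DOPA (0.0049% of all genes) and 0 in DOPA/HFS (0% of all genes). At an unadjusted p under 0.05 there were 0 in HFS (2.34% of all genes), 1 in DOPA, Cnr1 (2.59%), and 0 in DOPA/HFS (2.75%). The interaction had 0 called (0% of all genes) and 0 at the unadjusted limit (1.98%). L-DOPA over both stimulation states had 0 called (0.0049%) and 1 at the unadjusted limit, Cnr1 (2.73%), and HFS over both L-DOPA states had 0 called (0%) and 1 at the unadjusted limit, Napepld (4.36%). That last count was 0 with normexp background correction (3.97% of all genes) and with the deposited log2 table (4.92%). It was also 0 without the 6-OHDA array (4.15%) or the HFS array (4.77%) of slide 1. The same held without the DOPA array (3.97%) or the DOPA/HFS array (5.06%) of slide 3. Without the 6-OHDA array of slide 3 the count was 2, Cnr1 among them, where 9.61% of all genes reached this limit. The count in DOPA was 0 without the 6-OHDA array of slide 3 (4.38% of all genes) or the DOPA array of slide 2 (2.75%). The count for the interaction was 1 with the mean of all probes (1.96% of all genes), that in DOPA/HFS was 1 without its array of slide 1 (2.86%), and that for L-DOPA over both states was 2 without the DOPA/HFS array of slide 3 (2.43%).

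In the fit of all 24239 probes, 0 of the 7 probes of these genes were called by limma in each comparison, against 0.00413% of all probes in DOPA, 0.00825% for L-DOPA over both stimulation states and 0% in the others. An unadjusted p under 0.05 was found for 0 of 7 in HFS (2.23% of all probes), 2 in DOPA (both of Cnr1; 2.48%) and 0 in DOPA/HFS (2.68%). There was 1 for the interaction (the Cnr1 probe on 1 spot; 2% of all probes), 2 for L-DOPA over both stimulation states (both of Cnr1; 2.66%) and 1 for HFS over both L-DOPA states (Napepld; 4.2%).

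By the rule that all 3 treated arrays lie on one side of all 3 6-OHDA arrays, 1 of the 5 genes did not overlap in HFS (Napepld, lower), as did 5.13% of the 20381 genes that all 6 arrays measured. In DOPA it was 1 of 5 (Cnr1, higher), against 6.27% of 20371 such genes, and in DOPA/HFS 0 of 5, against 4.18% of 18382, fewer because 1 array of that group had many outlier spots left out. The median log2 fold change of the 5 genes was -0.049 in HFS, 0.11 for DOPA and -0.093 for DOPA/HFS, where the median of all genes was 0.0085, -0.010 and -0.012.

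Other genes of the pathway were taken from a list of 31, of which 30 were on the array and 23 were tested. They are further enzymes (10 tested), other receptors for these lipids (1 tested, Trpv1), partners of CB1 such as its G proteins (8 tested) and fatty acid carriers (4 tested). In HFS, DOPA and DOPA/HFS, 0 of the 23 were called by limma. At an unadjusted p under 0.05 there were 0 in HFS (2.34% of all genes), 0 for DOPA (2.59%) and 2 for DOPA/HFS (2.75%), 1 higher and 1 lower. In HFS, 0 of the 23 were free of overlap with 6-OHDA (5.13% of genes measured on all 6 arrays were). In DOPA there were 2, both higher (6.27%), and in DOPA/HFS 2, 1 higher and 1 lower (4.18%). The median log2 fold change of the 23 was 0.086 in HFS, 0.029 for DOPA and 0.065 for DOPA/HFS, beside the medians of all genes of 0.0085, -0.010 and -0.012.

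The gene with the higher signal in DOPA/HFS was Naaa, which encodes an acid amidase that hydrolyses N-acylethanolamines in lysosomes. It had 7.54, 6.98 and 7.57 in 6-OHDA and 8.65, 8.21 and 7.58 in DOPA/HFS. The third DOPA/HFS array was above the highest 6-OHDA array by only 0.0087. The log2 fold change was 0.78 (95% interval 0.083 to 1.48; limma adjusted p = 0.9997), and the differences within slides were 1.11, 1.23 and 0.0087. With the deposited log2 table it was 0.43.

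The gene with the lower signal was Fabp5, which encodes a fatty acid binding protein that carries anandamide inside cells. It had 15.35, 15.62 and 15.29 in 6-OHDA and 14.57, 15.16 and 15.04 in DOPA/HFS, so all DOPA/HFS arrays were lower. The log2 fold change was -0.50 (95% interval -0.92 to -0.077; limma adjusted p = 0.9997), and the differences within slides were -0.78, -0.47 and -0.25. Without the DOPA/HFS array of slide 1 it was -0.33. Fabp5 was also lower within slides in HFS (-0.26, -0.14 and -0.25) and in DOPA (-0.23, -0.23 and -0.11). Both of these groups overlapped with 6-OHDA.

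Genes were also ranked by the Pearson correlation of their log2 signal with each member over the 12 arrays, among 18357 genes with a value on every array. The members' nearest genes are a description, since arrays of a group share a treatment and arrays of a slide share a scan. Cnr1 and Faah were ranked on their brighter probe only, and the other Cnr1 probe disagreed with it on single arrays. For the brighter Cnr1 probe the nearest genes were TC533553 (r = 0.95), Ctsk (0.94), Khdrbs3 (0.94), BF286326 (0.94) and Spon1 (0.94). For Napepld they were Zfand2a (0.87), RGD1311350 (0.86) and Gabra4 (0.85), and for Daglb Setsip (0.90), LOC317165 (0.88) and Rbm22 (0.87). For Faah they were Mpp2 (0.89), Fbxw8_predicted (0.88) and Grwd1 (0.87), and for Mgll Acp2 (0.96), TC555919 (0.96) and Hipk2_predicted (0.95).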

How the data were processed

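The intensity values are those of the scanner files the authors deposited, in which Agilent Feature Extraction 9.1 had subtracted the background on a linear scale. The log2 values that the authors deposited, quantile normalized by them, served as an alternative. Each column of them had a median of 7.21, and their ranks equal those of mean signal minus mean background.

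Control spots and spots flagged as outliers were left out. Of 41012 probes, 10735 were named by accession through the RefSeq table of rat assembly GRCr8, and the others kept the names in the files. Intensities were taken to log2, quantile normalized and averaged per probe, and the brightest probe passing the filter stood for a gene. DOPA/HFS replicate 3 had 4175 outlier spots against 2 to 25 on the others. All 12 arrays were fitted with limma 3.58.1 (lmFit, eBayes, Benjamini-Hochberg) in R 4.3.3 (with jsonlite 2.0.0 and version 1.17.8 of data.table), and the fits were tested on simulated data. The SAM test of the methods was not repeated here.

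All 7 members were named, the pathway genes with an unadjusted p under 0.05 in a comparison with 6-OHDA, and by correlation the 3 genes most like each member (5 for Cnr1). The members and lists were chosen with earlier results of these data known. The 8 marker lists cover projection neurons, interneurons, cortex, microglia, astrocytes, oligodendrocytes, choroid plexus and endothelium. Slides came from the files. Deviations from the group means correlated between arrays of a slide with a median r of 0.11 (-0.29 to 0.48), above 0.1 in 10 of 18 pairs. Between arrays of different slides and different groups the median r was -0.069 (-0.45 to 0.54), above 0.1 in 7 of 36 pairs. Alternatives were scaling to the 75th percentile, normexp with an offset of 50, the log2 table, outlier spots kept, other filters, the mean of all probes, the slide block, fits of only the arrays compared, other thresholds, and leaving out each array.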

Additional observations from a re-analysis of the deposited data

How the results depend on the processing

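Under each alternative run for a comparison, 0 members were called by limma, also with the replicate block (0 in each of the 6 comparisons) and without any single array (0 to 0). Fits of only the arrays compared were run for the 3 comparisons with 6-OHDA. The interaction had no fold limit, so the alternative without that limit did not apply to it. Of 456 recomputed fold changes, 444 kept their sign. Many of these could not turn: the slide block, the other filters and fits of only the arrays compared gave the members the fold changes of the main fit. The total also holds Naaa, Fabp5 and the other Cnr1 probe, which were chosen after seeing the data. It is therefore no measure of how stable the fold changes are. The log2 fold change of Cnr1 in DOPA was between 0.85 and 0.91 under the other settings and between 0.53 and 1.10 without single arrays. In HFS, the mean of all probes changed the sign for Cnr1 (0.029) and Faah (0.020). Leaving out single arrays changed signs too: the range was -0.53 to 0.040 for Cnr1, -0.17 to 0.14 for Faah and -0.13 to 0.0036 for Daglb in HFS (0.0013 without HFS replicate 2), -0.26 to 0.45 for Mgll in DOPA, and -0.066 to 0.65 for Mgll, -0.048 to 0.67 for Cnr1 and -0.21 to 0.024 for Napepld in DOPA/HFS. Ranges that kept their sign without single arrays were 0.033 to 0.76 for Mgll in HFS, 0.14 to 0.34 for Napepld in DOPA, -0.077 to -0.024 for Daglb in DOPA, -0.21 to -0.036 for Faah and -0.13 to -0.040 for Daglb in DOPA/HFS, and -0.62 to -0.037 for the interaction of Cnr1. In DOPA/HFS, the deposited table gave -0.24 for Daglb, -0.26 for Faah and 0.094 for Mgll, and with outlier spots kept Daglb was -0.24, Faah -0.25, Napepld -0.24 and Mgll 0.15. The mean of all probes gave -0.0915 for Faah in DOPA and -0.73 for the interaction of Cnr1. Daglb was -0.0805 in HFS with the 75th percentile and -0.0215 in DOPA with normexp (-0.028 with the deposited table). The number of members without overlap in DOPA became 2 with the 75th percentile (6.17% of all genes with values). In DOPA/HFS it became 1 with the 75th percentile (Daglb; 4.02%), with the deposited table (Faah; 5.34%) and with outlier spots kept (Faah; 4.93%). Without single arrays it was 1 to 2 in HFS (5.1% to 24.6% of all genes), 1 to 3 in DOPA (6.25% to 19.7%) and 0 to 2 in DOPA/HFS (4.15% to 17.1%), where fewer arrays make a lack of overlap easier to reach. The cause of the other changes was not tested. Alternatives for Naaa, Fabp5 and single probes were chosen after seeing the data: Naaa was between 0.43 and 0.78 and Fabp5 between -0.57 and -0.50 under the other settings, and between 0.53 and 1.06 and between -0.62 and -0.33 without single arrays, with no call. Cnr2 was close to background, which limits what can be said of it.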

Other observations

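Outside the naming rule, and chosen after its values were seen, Plcb4, a phospholipase C that supplies diacylglycerol, was the pathway gene with an unadjusted p under 0.05 for L-DOPA over both stimulation states (log2 fold change 0.22, 95% interval 0.0073 to 0.43, limma adjusted p = 0.9998). Naaa had such a p for HFS over both L-DOPA states (0.53, 95% interval 0.038 to 1.03, limma adjusted p = 0.912). Each was 1 of the 23 tested pathway genes. Of all genes, 2.73% reached this limit for L-DOPA over both stimulation states and 4.36% for HFS over both L-DOPA states. Of the 10 markers of projection neurons, 0 were called by limma in HFS, DOPA and DOPA/HFS. In HFS, 1 of them had an unadjusted p under 0.05, as did 2.34% of all genes: Tac1, the precursor of substance P (log2 fold change 0.37, 95% interval 0.0016 to 0.73, limma unadjusted p = 0.0492, adjusted p = 0.998). There were 0 in DOPA (2.59% of all genes) and 0 in DOPA/HFS (2.75%). The lists for interneurons, cortex, microglia, astrocytes, oligodendrocytes and endothelium had 0 genes called and 0 with an unadjusted p under 0.05 in HFS, DOPA and DOPA/HFS.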
